A study of Mus musculus with 40 samples.

Results

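The insulin-like growth factor (IGF) axis was followed across 40 mouse samples, each measured on 1 Affymetrix mouse genome array. Its 10 members were taken by name. They are the ligands Igf1 and Igf2, the receptors Igf1r and Igf2r, the secreted binding proteins Igfbp2, Igfbp3, Igfbp4 and Igfbp5, and the mRNA-binding proteins Igf2bp2 and Igf2bp3. For 9 of them the array carries probe sets that name that gene alone, 30 of 34945 such probe sets in all, and these 9 genes were tested among 18193. Igf2bp2 was not analysed here.

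The samples were 2 early biopsy lines and 11 end-stage lines of p53R172H gliomas, 11 p53R172H gliomas, 11 p53null gliomas and 5 normal cortices. The lines and the p53R172H gliomas had the genotype hGFAP-cre+;p53LSLR172H/floxE2-10, in which the R172H point mutation is switched on and the other allele of p53 is deleted. The p53null gliomas were hGFAP-cre+;p53floxE2-10/floxE2-10. Of the cortices, 3 were hGFAP-cre+;p53floxE2-10/+ and 2 were hGFAP-cre-;p53floxE5-6/floxE5-6, so every control animal also carried floxed p53. Cre was driven by the human GFAP promoter in neural cells, and the mice were of a mixed genetic background. The ages of the animals sampled are not given in the sources used here. The lines were sphere cultures in serum-free neural stem cell medium with EGF, bFGF and the supplements N2 and B27. The passage at which lines were taken for the arrays is not given in the sources used here. Whole tissue was used for gliomas and cortices. The level of p53 itself was not analysed here.

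IGF1 and IGF2 are small secreted hormones related to insulin. Both bind IGF1R, a receptor tyrosine kinase that feeds the PI3K-Akt and MAPK pathways, whereas IGF2R takes up IGF2 and delivers it to lysosomes without such a signal. The IGF binding proteins hold most of the secreted ligand and either block it or carry it to cells, and some act on cells without ligand. The IGF2BP proteins bind Igf2 and many other mRNAs and are best known from the embryo and from tumors. Igf2 is imprinted and read from the paternal copy in most fetal tissues. In the adult mouse brain it is made mainly by the meninges and the choroid plexus, and in the human it is one of the growth genes that single tumors can express at a very high level.

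Levels are log2 signals, so that a difference of 1 is a doubling. They are given per probe set and were not compared between genes. Array medians lay between 5.24 and 5.47, and a signal at or below its array median was read as dim. The score of a cell type list is the mean difference of its markers from their cortex means. In the 11 end-stage lines the score of 14 microglia and macrophage markers was -4.07 to -3.17, against -0.04 to 2.35 in the 22 gliomas and -0.39 to 0.32 in cortex. The 11 endothelial and pericyte markers scored -3.41 to -2.69 in those lines, -1.49 to 0.23 in gliomas and -0.12 to 0.18 in cortex. The 5 oligodendrocyte progenitor markers scored -1.91 to 4.07 in gliomas (median 3.15) and -0.31 to 0.34 in cortex. The lowest glioma values were in arrays 36 (-0.28), 41 (1.08) and 50 (-1.91), so arrays 36 and 50 were not above cortex. Mature neuron markers scored -7.33 to -0.31 in gliomas, and those of arrays 38 (-0.54), 45 (-0.49) and 58 (-0.31) were the ones close to cortex (-0.43 to 0.28). The study reports a p53R172H primary tumor in which histology had found normal tissue before the array was run. The labels do not say which array this was, and all 22 gliomas were kept in the main comparisons.

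Igf2, the fetal growth factor, was the member that varied most. Its usual probe set read 13.72 and 13.49 in the 2 early biopsy lines and 4.48, 10.28 and 14.16 as the lowest, median and highest of the end-stage lines. The p53R172H gliomas ran from 5.63 through a median of 11.51 to 14.02 and the p53null gliomas from 8.07 through 13.78 to 14.07, against 10.15, 9.32, 10.11, 9.23 and 9.26 in the 5 cortices. Cortex was thus narrow, and gliomas lay on both sides of it. Of the 22 gliomas, 16 were above the highest cortex and 5 below the lowest. By genotype, 7 of 11 p53R172H gliomas were above and 4 below, and 9 of 11 p53null gliomas were above and 1 below. Of the end-stage lines 6 were above and 4 below, and both early biopsy lines were above.

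The distance between single tumors was large. The highest arrays of each tumor group lay near 14, close to the highest signal of any probe set, and 2 of 11 end-stage lines were at or below their array medians, so no fold between single samples is given. Among all 18193 genes Igf2 had the largest standard deviation in the end-stage lines (3.75, where the median gene had 0.33), and it held rank 2 in the p53R172H gliomas (3.31, where the median gene had 0.43) and rank 150 in the p53null gliomas (2.09). In cortex its standard deviation was 0.47. The other probe set of Igf2, 1415931_at, also varied widely, at a lower signal. It read 10.22 and 9.89 in the early biopsy lines, 3.31 to 11.55 in end-stage lines, 2.78 to 11.20 in p53R172H gliomas and 3.8 to 11.58 in p53null gliomas, against 3.98 to 4.63 in cortex. All 5 cortices and 8 of 22 gliomas were dim on this probe set, at or below their array medians. Differences among such dim values, also those below cortex, carry little weight.

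**Figure D1:**
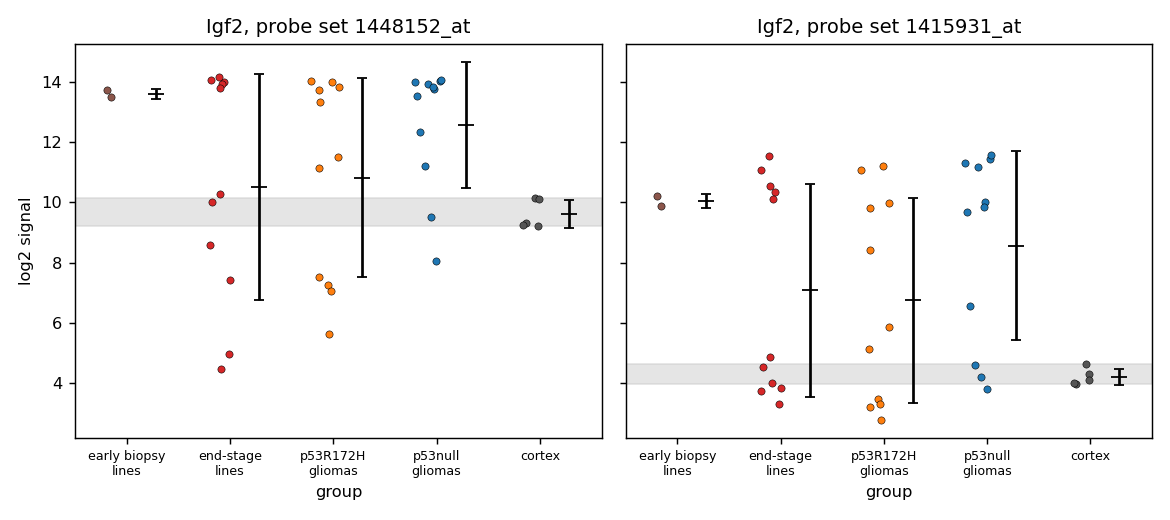
Log2 signal of Igf2 on both of its probe sets (vertical axis) in each array of the 5 groups (horizontal axis). Points are arrays, the bars beside them are the mean ± SD of the group and the grey band is the range of the 5 cortices. On probe set 1448152_at the gliomas and end-stage lines fall on both sides of the band, with a top near 14.

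With this spread, no difference of group means in Igf2 passed the test. All tests used limma across all genes, and adjusted p-values are Benjamini-Hochberg values over 18193 genes. Means were 13.61 ± 0.16 in early biopsy lines (SD, n = 2), 10.52 ± 3.75 in end-stage lines, 10.82 ± 3.31 in p53R172H gliomas, 12.57 ± 2.09 in p53null gliomas (n = 11 each) and 9.61 ± 0.47 in cortex (n = 5), and every step between neighbours in the order of means was within the larger SD of the pair. Igf2 in gliomas against cortex gave a log2 difference of 2.08 (SE 1.40, adjusted p = 0.227). With array quality weights the Igf2 difference passed (2.60, adjusted p = 0.0202), and probe set 1415931_at gave 3.45 (adjusted p = 0.0564 over all probe sets). For p53R172H against p53null gliomas the difference was -1.75 (SE 1.20, adjusted p = 0.631), for end-stage lines against p53R172H gliomas -0.30 (adjusted p = 0.899), for end-stage lines against cortex 0.90 (adjusted p = 0.655) and for early biopsy against end-stage lines 3.09 (SE 2.17, adjusted p = 1). A bulk signal cannot tell fewer cells of a type from less RNA per cell.

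Igf1, the other ligand, is made in the adult brain by interneurons, microglia and other cells. It was lower in the cultured lines than in either tissue. Its usual probe set read 4.17 and 4.71 in the early biopsy lines and 4.26, 4.81 and 5.02 as the lowest, median and highest of the end-stage lines. The p53R172H gliomas ran from 4.20 through 6.13 to 7.06 and the p53null gliomas from 4.69 through 5.82 to 7.27, against 6.29, 5.81, 5.92, 5.90 and 5.66 in cortex. All 11 end-stage lines were below every cortex and at or below their array medians, and 15.2% of all genes were likewise below every cortex in all lines. Igf1 fell by 1.30 in end-stage lines against p53R172H gliomas (SE 0.28, adjusted p = 0.00135) and by 1.20 against cortex (adjusted p = 0.00467). The lines' values lie at the dim end, which limits how large a fall can be measured. Group means were 4.44 ± 0.38 in early biopsy lines (n = 2), 4.71 ± 0.26 in end-stage lines, 6.02 ± 0.88 in p53R172H gliomas, 5.84 ± 0.84 in p53null gliomas and 5.92 ± 0.24 in cortex, and only the step between the lines and the next group exceeded the larger SD. The study describes these lines and gliomas as pairs from the same tumors, but the labels do not name the pairs, so all tests of lines against gliomas treat them as independent. In the same lines the microglia score was lowest, as given above, and its part in this difference was not tested.

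In gliomas against cortex the probe sets of Igf1 disagreed. The usual one, 1452014_a_at, gave 0.01 (adjusted p = 0.978). The other 3, where 46.7% of all probe sets passed in this comparison, were lower in gliomas, with differences of -1.88 on 1434413_at (adjusted p = 0.000111 over all probe sets), -1.90 on 1437401_at (adjusted p = 0.000173) and -1.14 on 1419519_at (adjusted p = 0.01), and the mean of all 4 gave -1.23 (adjusted p = 0.00287). On probe set 1434413_at 20 of 22 gliomas were below every cortex, and the cortices read 8.24, 7.91, 7.34, 7.45 and 6.97. The exceptions were arrays 58 (8.64) and 45 (7.03), both among the 3 gliomas with neuron markers close to cortex, while array 38, also among them, read 6.17. Across the 22 gliomas the usual probe set had Pearson r = -0.13 with the microglia score (permutation p = 0.567). The other 3 probe sets were not set against this score, and the cell source of Igf1 was not tested. Between p53R172H and p53null gliomas no probe set of Igf1 passed (0.17 on the usual one, adjusted p = 0.884).

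**Figure D2:**
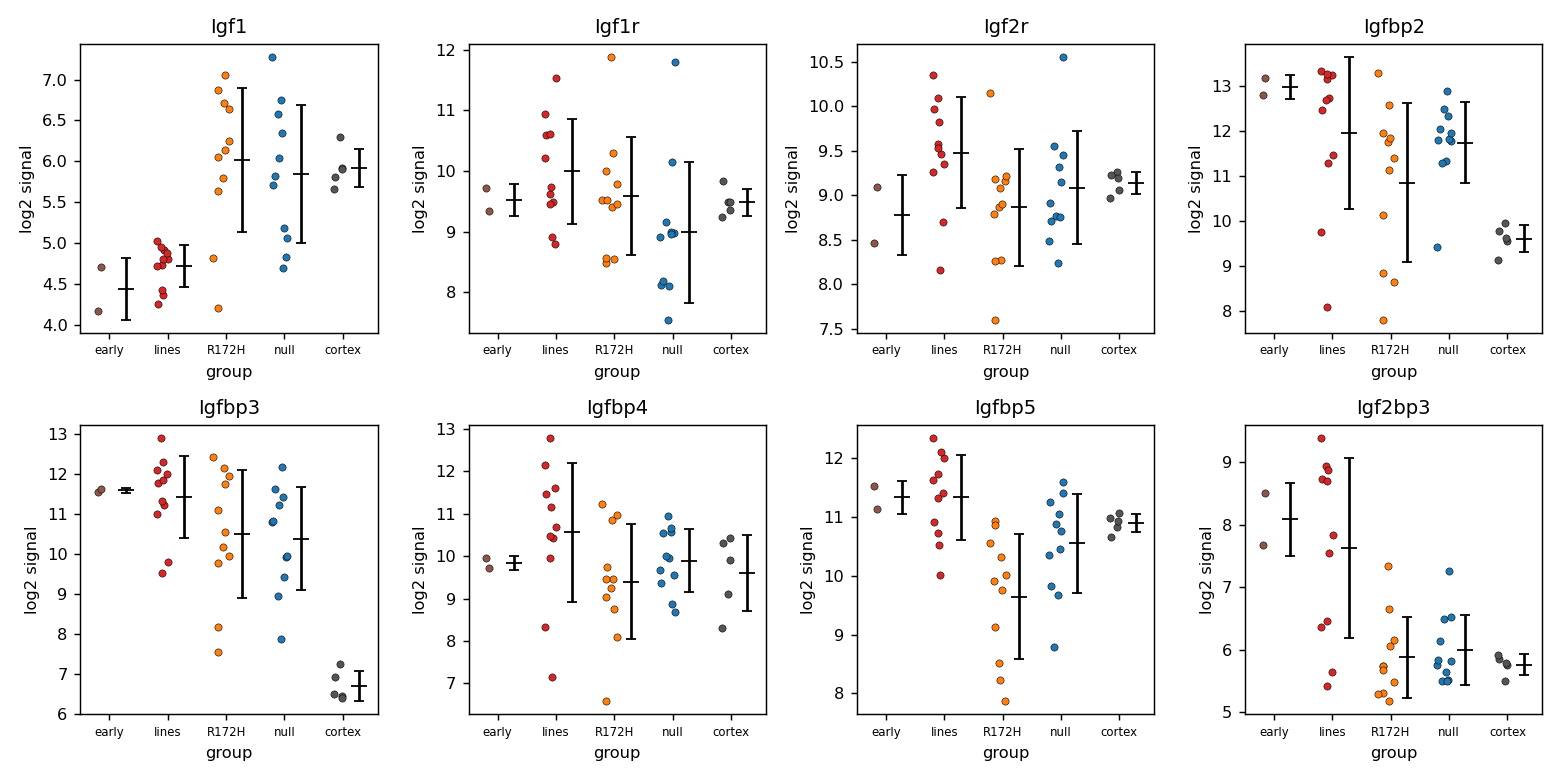
Log2 signal (vertical axes) of the other 8 genes by group (horizontal axes: early biopsy lines, end-stage lines, p53R172H gliomas, p53null gliomas and cortex). Points are arrays and bars are mean ± SD. Igfbp3 is the gene with all gliomas and lines above all cortices, and Igf1 the one with all lines below them.

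The receptors differed little between the groups. Igf1r, the signalling receptor, read 9.71 and 9.33 in early biopsy lines and 8.80, 9.74 and 11.54 as the lowest, median and highest of the end-stage lines. Among p53R172H gliomas it ran from 8.49 through 9.52 to 11.88 and among p53null gliomas from 7.55 through 8.95 to 11.79, against 9.48, 9.83, 9.36, 9.49 and 9.25 in cortex. Of the p53null gliomas 9 of 11 were below every cortex and 2 above, while 3 of 11 p53R172H gliomas were below and 3 above. Means were 9.52 ± 0.27, 9.99 ± 0.86, 9.59 ± 0.97, 8.99 ± 1.16 and 9.48 ± 0.22 for early biopsy lines, end-stage lines, p53R172H gliomas, p53null gliomas and cortex, and every step in their order was within the larger SD. The Igf1r difference between p53R172H and p53null gliomas was 0.60 (SE 0.39, adjusted p = 0.603), and gliomas against cortex gave -0.20 (adjusted p = 0.754). Of the 5 probe sets of Igf1r, only 1446303_at passed, at 1.504 in gliomas against cortex (adjusted p = 0.0163) and 2.24 in end-stage lines against cortex (adjusted p = 0.00114). In these comparisons 46.7% and 49.6% of all probe sets passed. All 5 cortices and 10 of 22 gliomas were dim on 1446303_at, at or below their array medians, so its differences carry little weight.

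Igf2r, the scavenger of IGF2, read 8.46 and 9.09 in early biopsy lines and 8.16, 9.53 and 10.36 as the lowest, median and highest of the end-stage lines. In p53R172H gliomas the range was from 7.60 through 8.91 to 10.15 and in p53null gliomas from 8.24 through 8.91 to 10.55, against 9.26, 9.22, 9.05, 9.19 and 8.97 in cortex. The ranges overlapped throughout, and every step in the order of group means (8.78 ± 0.45 in early biopsy lines, 9.48 ± 0.63 in end-stage lines, 8.86 ± 0.66 in p53R172H gliomas, 9.08 ± 0.63 in p53null gliomas and 9.14 ± 0.12 in cortex) was within the larger SD. The difference between end-stage lines and p53R172H gliomas was 0.61 (SE 0.25, adjusted p = 0.0974). It passed without the line of array 65 (0.75, adjusted p = 0.0322), without the glioma of array 60 (0.74, adjusted p = 0.0352) and with array weights (0.70, adjusted p = 0.0429). Gliomas against cortex gave -0.17 (adjusted p = 0.668).

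Across the 22 gliomas, Igf2r was the one gene of the 9 with a pair that passed against a cell type score. Of 45 pairs of a gene and a list, Igf2r and the endothelium and pericyte markers had r = 0.65 and rho = 0.70 (permutation p = 0.00071 and 0.00028, adjusted p = 0.0236 and 0.0126). The value was r = 0.67 within the p53R172H gliomas, 0.63 within the p53null gliomas and 0.57 without the 2 gliomas with the most extreme scores. Igf2r and the meningeal fibroblast markers had r = 0.64 (permutation p = 0.00105, adjusted p = 0.0236) and rho = 0.53 (permutation p = 0.0121, adjusted p = 0.272). The endothelial receptor genes Kdr and Tie1, both of them markers in that same endothelial list, were the genes most like Igf2r over the gliomas after the genotype means were taken off (r = 0.76 each, as a description). Tie1 was dim in most gliomas (3.81 to 5.52, median 4.27), so its value carries little weight. In the end-stage lines, where Kdr read at most 6.49 and Tie1 at most 3.79, Igf2r read 8.16 to 10.36. Levels are not comparable between these genes, and the part of endothelial cells in the level of Igf2r was not tested.

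Igfbp3, the main carrier of IGFs in blood, was the member that separated tumor samples from cortex. It read 11.54 and 11.63 in early biopsy lines and 9.53, 11.77 and 12.89 as the lowest, median and highest of the end-stage lines. The p53R172H gliomas ran from 7.54 through 10.54 to 12.42 and the p53null gliomas from 7.87 through 10.80 to 12.17, against 7.24, 6.92, 6.43, 6.39 and 6.48 in cortex. Every glioma and every line was above every cortex, as were 3.91% of genes in gliomas against cortex and 16.1% in end-stage lines against cortex. Igfbp3 rose by 3.75 in gliomas against cortex (SE 0.60, 13.4-fold, adjusted p = 3.36e-06) and by 4.74 in end-stage lines against cortex (SE 0.65, 26.7-fold, adjusted p = 1.66e-07).

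No difference in Igfbp3 passed among the tumor groups. Means were 11.59 ± 0.06 in early biopsy lines, 11.43 ± 1.03 in end-stage lines, 10.50 ± 1.60 in p53R172H gliomas, 10.38 ± 1.29 in p53null gliomas and 6.69 ± 0.37 in cortex, and only the step above cortex exceeded the larger SD. The difference between p53R172H and p53null gliomas was 0.12 (SE 0.51, adjusted p = 0.96), and between end-stage lines and p53R172H gliomas 0.93 (adjusted p = 0.235). Among all genes, Tnc, an extracellular matrix gene of glioma cells, was most like Igfbp3 over the 22 gliomas (r = 0.82 after the genotype means were taken off).

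Igfbp2, a binding protein of the developing brain and of gliomas in the human, was also higher in most tumor samples. It read 12.80 and 13.18 in early biopsy lines and 8.09, 12.70 and 13.33 as the lowest, median and highest of the end-stage lines. Among p53R172H gliomas it ran from 7.80 through 11.41 to 13.29 and among p53null gliomas from 9.43 through 11.83 to 12.90, against 9.95, 9.78, 9.55, 9.62 and 9.13 in cortex. Of the 22 gliomas 18 were above every cortex, and 3 gliomas, all p53R172H, were below. Igfbp2 rose by 1.69 in gliomas against cortex (SE 0.67, 3.23-fold, adjusted p = 0.0371) and by 2.35 in end-stage lines against cortex (SE 0.73, 5.09-fold, adjusted p = 0.00744). The glioma call was lost without any 1 of the 5 cortices (arrays 30 to 34), at adjusted p = 0.0528, 0.0604, 0.0688, 0.0674 and 0.0879, and with only the Cre-positive cortices (1.54, adjusted p = 0.168), where the call in lines was lost too (2.19, adjusted p = 0.0516). Group means were 12.99 ± 0.27 in early biopsy lines, 11.95 ± 1.69 in end-stage lines, 10.85 ± 1.76 in p53R172H gliomas, 11.74 ± 0.90 in p53null gliomas and 9.61 ± 0.31 in cortex, with every step in their order within the larger SD. The difference between p53R172H and p53null gliomas was -0.89 (SE 0.58, adjusted p = 0.603), and between end-stage lines and p53R172H gliomas 1.10 (adjusted p = 0.213).

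Igfbp4, which mostly blocks IGF action and is cut by the protease PAPP-A, spread widely, and its usual probe set, 1437405_a_at, passed in no comparison. It read 9.95 and 9.73 in early biopsy lines and 7.16, 10.69 and 12.78 as the lowest, median and highest of the end-stage lines. In p53R172H gliomas the range was from 6.59 through 9.45 to 11.23 and in p53null gliomas from 8.69 through 9.96 to 10.96, against 9.10, 10.31, 10.43, 9.91 and 8.30 in cortex. The cortices themselves were spread (SD 0.90, as large in 1.63% of genes), and the groups overlapped. Means were 9.84 ± 0.16 in early biopsy lines, 10.56 ± 1.63 in end-stage lines, 9.40 ± 1.35 in p53R172H gliomas, 9.90 ± 0.75 in p53null gliomas and 9.61 ± 0.90 in cortex, all steps being within the larger SD. End-stage lines against p53R172H gliomas gave 1.16 (SE 0.52, adjusted p = 0.132), and 1.501 (adjusted p = 0.0275) without the line of array 65, which read 7.16. All 6 probe sets of Igfbp4 were higher there (0.92 to 1.33), and 1421991_a_at passed (0.95, adjusted p = 0.0125 over all probe sets), as it did in end-stage lines against cortex (0.88, adjusted p = 0.0231). Gliomas against cortex gave 0.04 (adjusted p = 0.964) and p53R172H against p53null gliomas -0.50 (adjusted p = 0.791).

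Igfbp5, a binding protein that can bind matrix and is found in neural progenitors, was higher in the lines than in the gliomas of the same genotype. It read 11.53 and 11.14 in early biopsy lines and 10.02, 11.41 and 12.34 as the lowest, median and highest of the end-stage lines. Among p53R172H gliomas it ran from 7.87 through 9.92 to 10.93 and among p53null gliomas from 8.79 through 10.76 to 11.60, against 10.84, 10.67, 11.07, 10.93 and 10.99 in cortex. No p53R172H glioma was above the cortices and 9 of 11 were below, while 3 of 11 p53null gliomas were above and 5 below. Igfbp5 rose by 1.69 in end-stage lines against p53R172H gliomas (SE 0.34, 3.24-fold, adjusted p = 0.000673). Its second probe set, 1422313_a_at, did not pass there (0.24, adjusted p = 0.164 over all probe sets).

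Between genotypes Igfbp5 had the smallest p of the 9 genes, with -0.91 in p53R172H against p53null gliomas (SE 0.34, unadjusted p = 0.0124, adjusted p = 0.281), and 0.09 on the second probe set. In gliomas against cortex it gave -0.80 (SE 0.40, adjusted p = 0.0995), which passed with cyclic loess normalization (-1.11, adjusted p = 0.0242) and with array weights (-0.62, adjusted p = 0.0271). Means were 11.34 ± 0.28 in early biopsy lines, 11.34 ± 0.72 in end-stage lines, 9.65 ± 1.07 in p53R172H gliomas, 10.55 ± 0.85 in p53null gliomas and 10.90 ± 0.16 in cortex, and only the step above cortex, to the early biopsy lines, exceeded the larger SD.

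Igf2bp3, the mRNA-binding protein, was higher in the lines than in the gliomas and the cortices. Its usual probe set, 1433732_x_at, read 7.68 and 8.50 in early biopsy lines and 5.41, 7.83 and 9.38 as the lowest, median and highest of the end-stage lines. In p53R172H gliomas the range was from 5.18 through 5.74 to 7.33 and in p53null gliomas from 5.50 through 5.81 to 7.26, against 5.50, 5.86, 5.75, 5.78 and 5.92 in cortex. Of the end-stage lines 9 of 11 were above every cortex and 1 below. Igf2bp3 rose by 1.75 in end-stage lines against p53R172H gliomas (SE 0.37, 3.37-fold, adjusted p = 0.00121) and by 1.86 against cortex (SE 0.47, 3.64-fold, adjusted p = 0.00115). All 6 of its probe sets passed in the first of these comparisons, with differences of 0.72 to 2.62, beside 12% of all probe sets. In the second 5 of 6 passed, beside 49.6% of all probe sets, and 1433731_at gave 0.56 (adjusted p = 0.0945).

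On probe set 1422610_s_at of Igf2bp3 the lines fell into high and low values. All 5 cortices, 16 of 22 gliomas and 2 of 11 end-stage lines were dim there, at or below their array medians, which limits how large a gap can be measured. The early biopsy lines read 8.27 and 9.01, and 9 of 11 end-stage lines read 7.57 to 9.13, while the lines of arrays 53 and 59 read 3.75 and 4.49. Among gliomas, arrays 46 (8.88) and 54 (7.17) were high and both were p53R172H, the highest p53null glioma read 6.15, and cortex read 3.68, 3.76, 3.98, 4.30 and 3.88. Neither gliomas against cortex (0.17, adjusted p = 0.772) nor p53R172H against p53null gliomas (-0.12, adjusted p = 0.944) passed on the usual probe set. Means there were 8.09 ± 0.58 in early biopsy lines, 7.63 ± 1.43 in end-stage lines, 5.88 ± 0.65 in p53R172H gliomas, 6.00 ± 0.56 in p53null gliomas and 5.76 ± 0.16 in cortex, and only the step from the gliomas to the end-stage lines exceeded the larger SD.

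**Figure D3:**
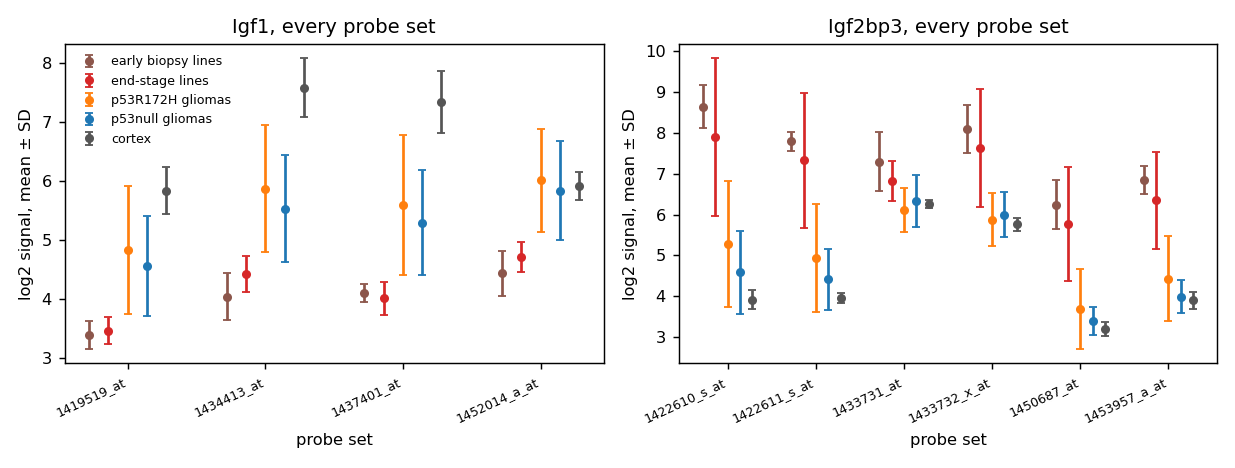
Log2 signal, mean ± SD of each group (vertical axes), for every probe set of Igf1 and Igf2bp3 (horizontal axes), with the groups side by side and cortex at the right of each set. On 3 of 4 probe sets of Igf1 the cortex mean is above both glioma means. On all 6 probe sets of Igf2bp3 the means of both groups of lines are above those of the tissues, while the SD bars of end-stage lines and p53R172H gliomas overlap.

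CG dinucleotides are the sites that DNA methylation can mark, and imprinting of Igf2 rests on such marks elsewhere in its locus. The sequences just before the RefSeq start sites of the 4 genes with the clearest patterns are therefore shown. Each is the 250 bases before a start (RefSeq, mouse build GRCm38.p6), written 5′ to 3′ on the strand of the gene, with every CG in capitals. Over 32851 such promoters the median count of CG was 6.
Igf2, chr7:142658805-142659054, minus strand: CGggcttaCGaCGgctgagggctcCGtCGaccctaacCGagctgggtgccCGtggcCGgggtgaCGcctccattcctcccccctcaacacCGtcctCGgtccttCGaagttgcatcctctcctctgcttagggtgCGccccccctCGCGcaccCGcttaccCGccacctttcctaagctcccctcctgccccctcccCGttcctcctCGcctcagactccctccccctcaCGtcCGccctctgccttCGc
Igfbp3, chr11:7213924-7214173, minus strand: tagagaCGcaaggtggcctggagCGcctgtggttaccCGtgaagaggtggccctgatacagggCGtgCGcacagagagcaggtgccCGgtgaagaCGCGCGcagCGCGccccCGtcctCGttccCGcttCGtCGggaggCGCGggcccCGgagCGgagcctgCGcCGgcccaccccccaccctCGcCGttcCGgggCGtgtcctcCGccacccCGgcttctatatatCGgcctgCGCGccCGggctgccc
Igf2bp3, chr6:49214955-49215204, minus strand: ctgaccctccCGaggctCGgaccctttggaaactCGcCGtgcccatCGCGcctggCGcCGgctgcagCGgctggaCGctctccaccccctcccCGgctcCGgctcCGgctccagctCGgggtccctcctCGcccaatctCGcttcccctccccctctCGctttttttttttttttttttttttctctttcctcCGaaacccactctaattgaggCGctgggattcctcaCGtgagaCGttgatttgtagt
Igf1, chr10:87860861-87861110, plus strand: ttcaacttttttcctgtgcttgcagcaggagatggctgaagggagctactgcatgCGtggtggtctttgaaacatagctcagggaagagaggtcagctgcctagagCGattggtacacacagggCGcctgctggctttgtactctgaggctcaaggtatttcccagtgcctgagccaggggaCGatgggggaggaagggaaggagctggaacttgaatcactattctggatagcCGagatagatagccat
The Igfbp3 promoter held 32 CG, a count reached by 4.58% of promoters, that of Igf2bp3 21 (16.3%) and that of Igf1 5 (55.6%). Igf2 has 4 starts in this table, with 1, 10, 22 and 6 CG, and the one with 22 is shown (14.8%). The TATA motif TATAAA, searched on both strands and present in 12.4% of promoters, was in none of the sequences shown, and the GC box GGGCGG, present in 32.7%, was in that of Igf2 alone. These are descriptions of letters in the window, and neither methylation nor start site use was measured here.

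Read by comparison, the count of the 9 genes that passed differed, and so did its relation to the share of all genes. In gliomas against cortex 2 of 9 rose (Igfbp2 and Igfbp3) and none fell, where 47.2% of all genes passed (22.6% higher and 24.7% lower), and the median difference was 0.04, beside -0.03 over all genes. In p53R172H against p53null gliomas none of 9 passed, beside 0.033% of all genes, with 1 of 9 at an unadjusted p under 0.05. In end-stage lines against p53R172H gliomas 2 rose (Igf2bp3 and Igfbp5) and 1 fell (Igf1), beside 13.7% of all genes (7.24% higher and 6.43% lower), with a median of 0.93 beside 0.05. In end-stage lines against cortex 3 rose (Igf2bp3, Igfbp2 and Igfbp3) and 1 fell (Igf1), beside 49.8% of all genes (25.5% higher and 24.3% lower), with a median of 0.90 beside 0.02. In early biopsy against end-stage lines none passed, as for all genes (0%), and none had an unadjusted p under 0.05. The comparisons with cortex share the 5 cortices, and those with p53R172H gliomas share these gliomas. Without the line of array 65, 5 of 9 passed in end-stage lines against p53R172H gliomas, Igf2r and Igfbp4 being added. The share of all genes that passed without this line is not given here.

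**Figure D4:**
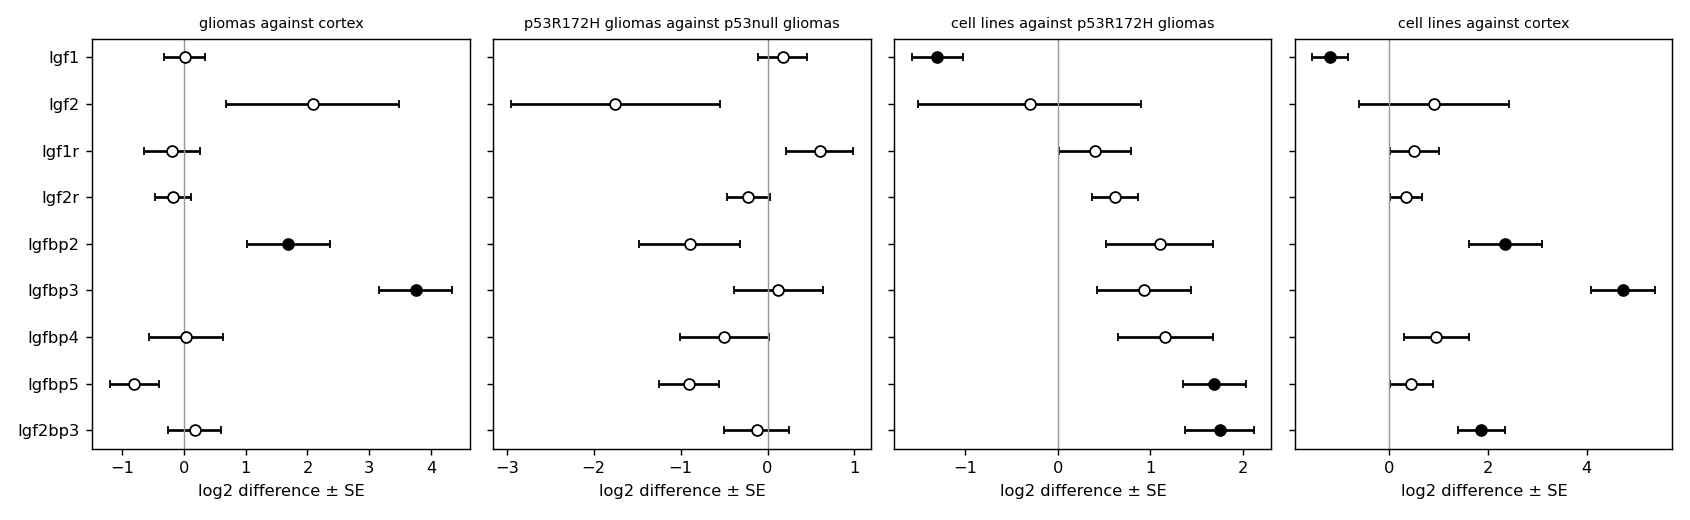
Log2 differences ± SE from limma (horizontal axes) for the 9 genes (vertical axis) in 4 comparisons. Filled points passed at an adjusted p under 0.05 over all genes. Igfbp3 lies farthest from 0 in both comparisons with cortex, and the widest error bars are those of Igf2.

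Within the gliomas, Igfbp2, Igfbp3 and Igfbp4 varied together. Of 36 pairs among the 9 genes over the 22 gliomas, Igfbp2 and Igfbp4 had r = 0.74 and rho = 0.60 (permutation p = 0.00011 and 0.004, adjusted p = 0.00396 and 0.048), with r = 0.82 within p53R172H gliomas, 0.35 within p53null gliomas and 0.55 without the 2 gliomas farthest from the median of Igfbp4. Igfbp3 and Igfbp4 had r = 0.62 and rho = 0.64 (permutation p = 0.00177 and 0.00179, adjusted p = 0.0319 and 0.0322), with r = 0.73 and 0.50 within p53R172H and p53null gliomas and 0.49 without the 2 farthest. Igfbp2 and Igfbp3 had r = 0.57 and rho = 0.66 (permutation p = 0.00534 and 0.00092, adjusted p = 0.0641 and 0.0322), with r = 0.75 and 0.36 within p53R172H and p53null gliomas and 0.64 without the 2 farthest. Each of these values was smaller in the p53null gliomas, and that difference was not tested. Igfbp5 stood apart from them, with r = 0.36 to Igfbp2, 0.11 to Igfbp3 and 0.21 to Igfbp4 (adjusted p = 0.341, 0.856 and 0.623).

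**Figure D5:**
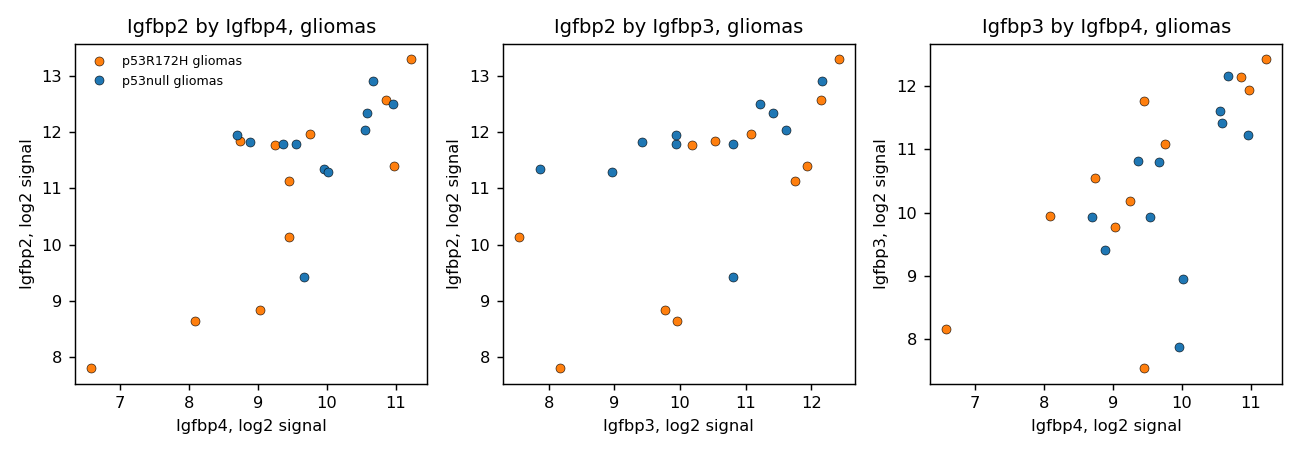
Log2 signals of Igfbp2, Igfbp3 and Igfbp4 against each other in the 22 gliomas, 1 point for each array, in p53R172H and p53null gliomas. The lowest points of Igfbp2 and Igfbp4 belong to 1 p53R172H glioma, with 7.80 and 6.59.

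Other genes of the pathway, a list of 42 with 38 measured, had calls in both directions, given here beside the share of all genes that passed. In gliomas against cortex 7 of 38 rose and 8 fell, beside 47.2% of all genes (median -0.13, beside -0.03 over all genes), in end-stage lines against p53R172H gliomas 4 rose and 1 fell, beside 13.7% (median -0.06, beside 0.05), and in end-stage lines against cortex 7 rose and 11 fell, beside 49.8% (median -0.28, beside 0.02). None passed between the genotypes of glioma or between early biopsy and end-stage lines.

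Among genes near the ligands, Hmga2, a chromatin protein of fetal growth, rose by 3.66 in gliomas against cortex (SE 0.86, adjusted p = 6e-04) and by 4.21 in end-stage lines against cortex (adjusted p = 0.000268). It read 4.95 to 10.36 in end-stage lines and 4.40 to 10.81 in gliomas, against 3.79 to 4.64 in cortex, where it was dim. Stc2, an inhibitor of the protease that cuts IGFBP4, rose by 2.21 in gliomas against cortex (adjusted p = 0.000207), by 3.57 in end-stage lines against cortex (adjusted p = 4.33e-07) and by 1.24 in end-stage lines against p53R172H gliomas (adjusted p = 0.0366), the last lost with cyclic loess (adjusted p = 0.0581) and 2 other alternatives. Plagl1, an imprinted zinc finger gene, fell by 1.89 in end-stage lines against cortex (adjusted p = 0.0421), with 7.0 to 10.92 in the lines and 10.19 to 10.95 in cortex. That call was lost in 3 of 9 alternatives, among them only the Cre-positive cortices (adjusted p = 0.118). Over the alternatives the Plagl1 difference ran from -2.25 to -0.22, with adjusted p up to 0.678.

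Of the other binding proteins, Igfbp6, which prefers IGF2, fell by 3.29 in gliomas against cortex (SE 0.65, adjusted p = 7.24e-05) and by 4.21 in end-stage lines against cortex (adjusted p = 4.96e-06). It read 4.45 to 5.94 in end-stage lines and 4.29 to 9.76 in gliomas, against 7.56 to 10.25 in cortex, and its highest p53R172H and p53null gliomas were arrays 58 and 38, which have neuron markers close to cortex. Igfbp7, a low-affinity relative found in vessels, fell by 4.17 in end-stage lines against p53R172H gliomas (SE 0.30, adjusted p = 1.27e-13), with 4.61 to 8.0 in those lines and 9.28 to 11.79 in p53R172H gliomas, and by 2.99 against cortex (adjusted p = 3.35e-08). With the mean of its probe sets these were -1.58 and -1.18. The endothelial score was -3.41 to -2.69 in the same lines, and its part was not tested. Igfbpl1, a relative of Igfbp7 in neural progenitors, rose by 2.07 in gliomas against cortex (adjusted p = 0.0263), with 12.06 and 11.77 in arrays 50 and 41 and a median of 6.20. That call was lost in 3 of 11 alternatives, among them only the Cre-positive cortices (adjusted p = 0.0897).

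Among receptors and adaptors, Insr, the insulin receptor, rose by 0.62 in end-stage lines against p53R172H gliomas (adjusted p = 0.0157), and Shc1, an adaptor towards MAPK, by 0.71 (adjusted p = 0.0168). Irs1, the main adaptor of IGF1R, rose by 1.51 in end-stage lines against cortex (SE 0.39, adjusted p = 0.00139), with 10.53 to 11.77 in the lines and 9.40 to 9.63 in cortex. Irs4 fell by 1.56 in gliomas against cortex (adjusted p = 0.039), where the cortices themselves ran from 3.25 to 8.97. The Irs4 call was lost in 2 of 11 alternatives, among them only the Cre-positive cortices (adjusted p = 0.21). Mtor, the kinase downstream of Akt, fell by 0.99 in gliomas against cortex (adjusted p = 3.15e-05), while the mean of its probe sets gave -0.04 (adjusted p = 0.803).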

How the data were processed

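Gene expression was read from 40 Affymetrix arrays of the mouse genome, 1 for each sample. The values, log2 signals, were used as deposited. Before deposit the authors had corrected background, normalized by quantiles and summarized probes by robust multi-array average, with all 40 arrays together. No log base was stated, and the range (2.00 to 14.47) was taken as log2. Quantile normalization hides a shift of most genes in one direction. Of 45101 probe sets, 64 controls, 932 with several symbols and 9160 unnamed in the platform annotation were left out.

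A gene was represented by the probe set whose mean over 40 arrays was highest, and no dim gene was filtered out. A linear model of 5 groups was fitted with limma 3.58.1 (R 4.3.3, lmFit and eBayes) after being tested on simulated data. The threshold was 0.05 after Benjamini-Hochberg adjustment over 18193 genes, and probe sets over 34945. Gliomas against cortex used the mean of both genotypes. Correlations used 100000 permutations in Python 3.11.15 with scipy 1.17.1, two-sided. Promoters came from RefSeq, GRCm38.p6.

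Groups follow the labels, which name no batch and tie no 2 arrays to 1 animal. The p-values therefore cover the spread between these samples only, and how much of it is technical is not known. Precision is limited by how few arrays there are, with 5 cortices and 2 early biopsy lines. The 10 members and all lists were chosen with earlier results of these data known. Named besides the members were, for each comparison, up to 3 pathway genes that passed with the largest rise and fall and the 3 genes most like a member, and other genes were named after their values were seen. Alternatives were other probe set summaries, compared groups only, cyclic loess, array weights, a looser threshold of 0.1, Cre-positive cortices only and single arrays left out. Leaving out arrays in groups of 11, leaving out sets of gliomas and counting any or every probe set were added after seeing the data.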

Additional observations from a re-analysis of the deposited data

How the results depend on the processing

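The count of the 9 genes that passed in gliomas against cortex, 2, became 4 with array quality weights, 1 with only the Cre-positive cortices and 4 when any probe set of a gene sufficed. The share of all genes that passed under each alternative is not given here. These counts therefore cannot tell a change in the 9 genes from a change in all genes. It was 1 to 2 with single arrays left out, since each cortex left out ended the call of Igfbp2. In end-stage lines against p53R172H gliomas the count was 3 to 5 with single arrays left out, 5 without the line of array 65. Single arrays left out aside, of 592 alternative values of named genes 550 kept direction and call, 17 lost the call, 6 gained it and 19 changed sign. In 18 of these 19 neither value passed, and the exception was Igf1 in gliomas against cortex with the mean of its probe sets (-1.23). That gene also read -0.0843 with cyclic loess, -0.0642 with array weights, -0.077 with Cre-positive cortices and -0.0897 without the 3 gliomas lowest in progenitor markers. With the mean of all probe sets the sign also changed for Igf1r in gliomas against cortex (0.33), Igf2bp3 in p53R172H against p53null gliomas (0.26), Igf2 in end-stage lines against p53R172H gliomas (0.0158) and Igfbp5 in early biopsy against end-stage lines (0.15). Without probe sets ending in _x_at or _s_at it changed for Igf2bp3 in gliomas against cortex (-0.0444), Igfbp5 in p53R172H against p53null gliomas (0.092) and Igfbp5 in early biopsy against end-stage lines (0.31). Igfbp4 in gliomas against cortex read -0.24 with cyclic loess, -0.0115 with array weights and -0.30 with Cre-positive cortices. Cyclic loess also gave -0.0231 for Igf2r in end-stage lines against cortex and 0.0075 for Igfbp5 in early biopsy against end-stage lines. In p53R172H against p53null gliomas, Igfbp3 read -0.26 without the gliomas lowest in progenitor markers and Igf2bp3 0.0459 without those richest in neuron markers. With a single array left out, 7 of 45 differences of the 9 genes changed sign, none of them with a call (lowest adjusted p = 0.687). The cause of these changes was not tested. The rises of Igfbp3 against cortex and the fall of Igf1 in lines passed under every alternative run. No paired analysis was possible because the labels do not say which line came from which tumor.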

Other observations

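Igf2 and the 5 measured genes on each side of it on chromosome 7 were read in the same arrays, and only some of them are given here. Igf2os, the antisense gene at the Igf2 locus, had r = 0.75 with Igf2 over the 22 gliomas and 0.87 over the 11 end-stage lines, as a description. It read 7.31 and 7.23 in early biopsy lines, 4.09 to 8.13 in end-stage lines, 4.48 to 8.70 in p53R172H gliomas and 4.43 to 9.66 in p53null gliomas, against 4.62 to 5.05 in cortex. The strand each probe set reads was not checked. Mrpl23, on the other side of Igf2, had r = 0.62 over gliomas and 0.18 over lines. Ins2, the insulin gene beside Igf2, was dim in most samples but read 14.07 in the p53null glioma of array 42, where the next highest glioma read 7.41 and cortex 5.22 to 5.67. Igf2 was 13.5 in the same array.

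Igf1r, also on chromosome 7, was high in single samples. Its 2 highest gliomas were arrays 46 (11.88, p53R172H) and 44 (11.79, p53null), and its highest end-stage line was array 47 (11.54). Mef2a, a neighbour 4 genes away, had r = 0.65 with Igf1r over gliomas and 0.83 over end-stage lines, and its highest gliomas were array 58 (11.51) among p53R172H and array 44 (12.08) among p53null gliomas. Its highest end-stage line was array 51 (12.15), so only array 44 was highest in its group for both genes. Mef2a read 10.81 to 11.14 in cortex, and array 58 is among the gliomas with neuron markers close to cortex. Lysmd4, 5 genes away, had r = 0.47 and 0.83. Of the 5 measured genes read on each side of Igf1r, only Mef2a and Lysmd4 are given here. Their values therefore do not describe the region as a whole.

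The genes most like Igf2bp3 over the gliomas were Tbcb, Alkbh6 and Sdhaf1 (r = 0.85, 0.78 and 0.78), all on chromosome 7, whereas Igf2bp3 itself is on chromosome 6. Kmt2b and Wdr62, also on chromosome 7, were among the 3 genes most like Igf1r (r = 0.69 and 0.67). All 5 were highest in array 46 among p53R172H gliomas and in array 38 among p53null gliomas, with Wdr62 at 10.79 and 8.83, where the next of each group read 6.47 and 6.36 and cortex 3.81 to 4.58. These same arrays had the highest Igf2bp3 of their groups on the usual probe set (7.33 and 7.26). Copy number was not measured in these files. In the end-stage lines the gene most like Igfbp4 was Peg12, an imprinted gene on chromosome 7 (r = 0.96), with 2.65 to 8.80 in the lines and 2.56 to 2.78 in cortex.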
